A study of Mus musculus with 6 samples.

Results

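Myelin is a stack of oligodendrocyte membrane that is unusually rich in galactolipids, and 9 genes whose products make, move or feed those lipids were followed here in the mouse substantia nigra. They are Ugt8a, Fa2h, Gal3st1, Aspa, Cers2, Elovl1, Elovl7, Gltp and Enpp2, taken by symbol from a table of 19251 genes. All 9 had a row and all 9 passed the filter on low counts, which kept 19109 genes. The list was selected on the counts of these same libraries, with the lower values under fasting known, so that difference is described below, and counts of members past a threshold are given as a description that supports nothing. Gltp encodes a carrier and not an enzyme, and Enpp2 a secreted enzyme that acts outside the sheath, so the set is wider than the word enzyme says.

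The libraries came from substantia nigra lysate of C57BL/6 mice, all of them with the genotype label rAAV-A53T-aSynuclein, meaning that a recombinant adeno-associated virus delivered a mutant form of alpha-synuclein, the protein that accumulates in Parkinson's disease. In the 3 ad libitum libraries the mice had food at all times, and in the 3 fasting libraries food was withheld for 24 hours on 3 days of each week. Both diets began 2 weeks after surgery and ran for 10 weeks, and the ad libitum mice were moved between cages on the same schedule. The ages of the mice, the promoter of the vector, how long after a fast tissue was taken and whether each library came from a separate animal are not given in these sources, so p-values measure only the spread between these libraries, which may be partly technical. No group without the vector is part of the samples analysed here.

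The pathway runs from fatty acid to finished glycolipid. Elongases lengthen the fatty acid, ceramide synthases join it to a sphingoid base, a hydroxylase may add a hydroxyl group to it, a galactosyltransferase in the endoplasmic reticulum turns the ceramide into galactosylceramide, and a sulfotransferase in the Golgi turns part of that into sulfatide. In the brain most of this flux belongs to myelinating oligodendrocytes, and mice that lack Ugt8a, Fa2h, Cers2 or Aspa have unstable or vacuolated myelin.

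Promoter sequence was at hand for 7 of the 9 genes, and 3 are shown because they belong to the gene with the largest difference between diets (Ugt8a), the gene with the smallest (Aspa), and the only member with one of the SOX cores searched (Gal3st1). Each line gives the 250 bases before a start site in 5′ to 3′ direction of the gene, from RefSeq on GRCm38.p6, a build that is older than the one named for the counts. Capitals mark matches, on either strand, to ACAAAG or ACAATG (cores bound by SOX factors, among them Sox10 of oligodendrocytes), GGGCGG (the GC box bound by Sp1), CCAAT (bound by NF-Y) and TATAAA (the TATA element), and adjoining or overlapping matches run together.
Ugt8a, chr3:125938653-125938902, minus strand: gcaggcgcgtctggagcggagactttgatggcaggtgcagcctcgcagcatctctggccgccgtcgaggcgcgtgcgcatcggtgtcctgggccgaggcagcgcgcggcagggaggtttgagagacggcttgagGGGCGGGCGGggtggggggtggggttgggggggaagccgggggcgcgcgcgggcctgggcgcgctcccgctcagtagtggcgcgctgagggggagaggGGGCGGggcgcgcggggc
Aspa, chr11:73324638-73324887, minus strand: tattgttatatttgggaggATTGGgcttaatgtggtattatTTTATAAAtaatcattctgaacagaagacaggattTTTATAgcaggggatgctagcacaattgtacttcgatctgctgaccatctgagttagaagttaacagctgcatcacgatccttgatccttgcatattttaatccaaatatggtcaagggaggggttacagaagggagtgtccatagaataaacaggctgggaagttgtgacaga
Gal3st1, chr11:3983386-3983635, plus strand: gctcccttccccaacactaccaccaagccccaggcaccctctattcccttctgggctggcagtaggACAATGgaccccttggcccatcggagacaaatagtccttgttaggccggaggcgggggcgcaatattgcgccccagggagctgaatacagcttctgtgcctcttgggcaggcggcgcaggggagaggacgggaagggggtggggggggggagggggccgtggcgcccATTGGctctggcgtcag

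These windows differed in composition. The Ugt8a window was 76.8% G and C with 3 matches to the GC box, and the Aspa window was 38.8% G and C with 3 matches to the TATA element, 2 of them overlapping on opposite strands. The median over all 32851 promoters in the table was 52.4%. Among the 11 start sites listed for the 7 members, 6 held a GC box against 32.7% of all promoters, 6 held CCAAT against 33.8%, and 8 held the E-box CANNTG, a site for helix-loop-helix factors such as Olig2, against 66.2%. ACAATG was found at 2 of the 11 sites, both of Gal3st1 and overlapping each other, against 10.7%, and ACAAAG at 0 of the 11 against 16.5%. A match is a run of letters and no evidence of binding.

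Levels are given as CPM, the counts of a gene scaled to a common library total with TMM factors, which correct for differences in composition. All 9 genes had lower mean levels under fasting, and for 8 of them every fasting library lay below every ad libitum library. Such a gap was present in the lower direction in 15.0% of all tested genes and in either direction in 27.5%, and 50.9% of all tested genes had a log2 fold change below 0. The log2 fold changes, fasting minus ad libitum, ran from -1.25 to -0.39 with a median of -0.61, and the median over all tested genes was -0.00498. At an adjusted p below 0.05 in edgeR's quasi-likelihood fit over all genes, 2 of the 9 were called, where 0.351% of all tested genes were called lower. DESeq2 put 8 of the 9 past the same threshold, where it put 4.51% of genes. The edgeR count was 0 without ad libitum replicate 2 or 3, where 45 and 1 of all tested genes were called. It was also 0 without fasting replicate 1 or 3. It was 1 without fasting replicate 2, where 68 of all tested genes were called. Without ad libitum replicate 1 it was 5, where 1187 of all tested genes were called. Without fasting replicate 1 or 3 edgeR called 0 genes of the whole table, with 2452 and 2495 at an unadjusted p below 0.05. Because the diet difference chose the members, nothing is read from these shares. In bulk tissue, fewer cells of a type and less RNA per cell cannot be told apart.

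**Figure D1:**
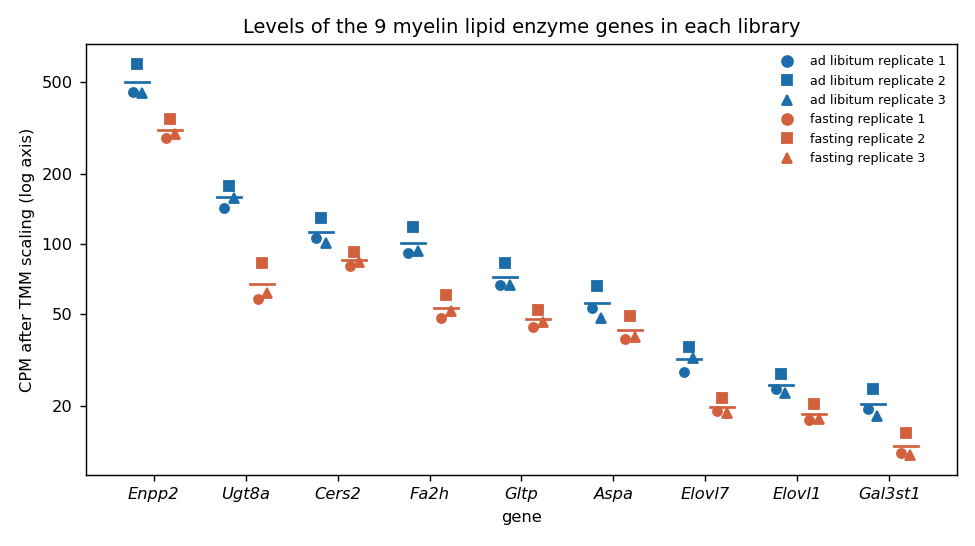
Counts scaled per library (CPM) after TMM scaling, on a log axis, for each of the 9 genes in each of the 6 libraries, with short lines at the mean of 3 libraries per diet. The fasting libraries (orange) lie below the ad libitum libraries (blue) for every gene except Aspa, where fasting replicate 2 at 48.78 CPM is just above ad libitum replicate 3 at 48.04 CPM.

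The galactosyltransferase step differed most. Ugt8a (ENSMUSG00000032854) encodes UDP-galactose:ceramide galactosyltransferase, which makes galactosylceramide. It was at 143, 178 and 159 CPM in ad libitum replicates 1, 2 and 3 and at 58.1, 83.0 and 61.2 CPM in fasting replicates 1, 2 and 3. The lowest ad libitum library was 1.72-fold above the highest fasting library, the widest gap among the 9 genes. The log2 fold change was -1.25 with a standard error (SE) of 0.16, and only 177 genes of the 19109 had a more negative one.

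Fa2h (ENSMUSG00000033579) encodes the fatty acid 2-hydroxylase that gives myelin galactolipids their hydroxylated chains. Its levels were 91.9, 119 and 92.9 CPM ad libitum and 47.9, 60.2 and 51.4 CPM under fasting. The 2 groups were apart by 1.53-fold at their closest, and the log2 fold change was -0.93 (SE 0.13). Gal3st1 (ENSMUSG00000049721), the cerebroside sulfotransferase that makes sulfatide from the product of Ugt8a, was at 19.4, 23.6 and 18.1 CPM with free feeding and at 12.5, 15.3 and 12.2 CPM under fasting. Its groups were separate but closer, and its log2 fold change was -0.61 (SE 0.13).

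Among the 3 genes of galactolipid assembly, the mean ratios of Ugt8a to Gal3st1 and to Fa2h were lower under fasting. The ratio of Ugt8a to Gal3st1 CPM was 7.35, 7.55 and 8.79 in the ad libitum libraries and 4.64, 5.42 and 5.01 in the fasting libraries, a mean of 7.90 ± 0.779 against 5.02 ± 0.390 (SD, n = 3). The ratio of Ugt8a to Fa2h was 1.59 ± 0.108 against 1.26 ± 0.103. In both ratios the groups did not overlap. The members were chosen on the diet difference and no share over other gene pairs was computed. These ratios and the CPM ratios below are therefore descriptions, and nothing is read from their separation.

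Among the genes that supply the ceramide, Cers2 and Elovl1 differed less than the 3 genes of galactolipid assembly, and Elovl7 more than Gal3st1. Cers2 (ENSMUSG00000015714), the ceramide synthase for very long acyl chains, was at 106, 130 and 101 CPM with free feeding and at 80.7, 92.6 and 83.6 CPM under fasting, a log2 fold change of -0.39 (SE 0.11). Its groups were 1.09-fold apart at their closest. Elovl1 (ENSMUSG00000006390), an elongase of saturated and monounsaturated very long chains, was at 23.7, 27.4 and 22.6 CPM with free feeding and at 17.4, 20.3 and 17.6 CPM under fasting (log2 fold change -0.41, SE 0.10). Elovl7 (ENSMUSG00000021696), a further elongase, was at 27.9, 36.0 and 32.04 CPM with free feeding and at 18.9, 21.6 and 18.6 CPM under fasting (log2 fold change -0.70, SE 0.11).

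The 2 elongases thus differed in size of change, and the ratio of Elovl7 to Elovl1 CPM was 1.30 ± 0.122 ad libitum and 1.07 ± 0.0144 under fasting. Relative to Cers2, Ugt8a went from a ratio of 1.43 ± 0.125 to 0.782 ± 0.0986, so that Ugt8a reads outnumbered Cers2 reads in all 3 ad libitum libraries and in 0 of the 3 fasting libraries.

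Aspa (ENSMUSG00000020774) encodes aspartoacylase, which splits N-acetylaspartate from neurons and frees acetate that oligodendrocytes can use for lipid synthesis. It was at 52.8, 65.6 and 48.04 CPM with free feeding and at 38.9, 48.78 and 39.8 CPM under fasting. It was the 1 member whose groups overlapped, and its log2 fold change of -0.39 (SE 0.14) was the smallest. Without ad libitum replicate 2 that value was -0.25 (SE 0.11).

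The remaining 2 genes act on finished or circulating lipid. Gltp (ENSMUSG00000011884) encodes the cytosolic glycolipid transfer protein, which carries glycolipids between membranes. It was at 66.3, 83.2 and 66.8 CPM with free feeding and at 43.7, 51.9 and 46.0 CPM under fasting, and its log2 fold change was -0.61 (SE 0.11). Enpp2 (ENSMUSG00000022425) encodes autotaxin, a secreted lysophospholipase D that makes lysophosphatidic acid and is released by maturing oligodendrocytes. It was at 453, 603 and 449 CPM with free feeding and at 288, 348 and 298 CPM under fasting, and its log2 fold change was -0.69 (SE 0.14).

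Enpp2 carried between 45.4% and 47.6% of the summed CPM of the 9 genes in every library of either diet. Choroid plexus also expresses Enpp2, and its marker Ttr was at 9.93, 73.1 and 16.7 CPM in ad libitum replicates 1, 2 and 3 and at 17.1, 4.0 and 14.2 CPM in the fasting replicates. The summed level of 8 choroid plexus markers, none of them at 0 over all libraries, ran from 25.5 to 107 CPM ad libitum and from 23.4 to 38.2 CPM under fasting, with 7 of 8 log2 fold changes below 0. Without ad libitum replicate 2, the library with the most Ttr, the Enpp2 log2 fold change was -0.54 (SE 0.09).

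Levels between genes were compared per kilobase of the longest coding transcript in GENCODE M21. In the ad libitum libraries Enpp2 was highest at 162 ± 28.4 CPM per kb (SD, n = 3). Cers2 (50.7 ± 7.11), Ugt8a (42.5 ± 4.74), Gltp (40.9 ± 5.47), Fa2h (40.6 ± 6.15) and Aspa (31.8 ± 5.20) followed, and no neighbours among these 5 differed beyond 1 SD of each. Elovl1 (13.6 ± 1.39) and Gal3st1 (10.8 ± 1.55) came next, again within their spread of each other, and Elovl7 (7.97 ± 1.02) was lowest.

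Under fasting the order of the mean levels per kb was different in the middle, where neighbours again did not differ beyond 1 SD of each. Cers2, at 38.6 ± 2.80 CPM per kb, was apart from the next gene, Gltp (26.8 ± 2.40), and Ugt8a, at 17.9 ± 3.61, came after Gltp, Aspa (24.3 ± 3.13) and Fa2h (21.3 ± 2.54). The order within the middle group depends on the transcript length used: per kb of the median coding transcript, Cers2 was at 134 and Gltp at 76.4 CPM per kb ad libitum, ahead of Aspa at 49.0 and Ugt8a at 42.7.

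The structural genes of myelin were lower in the same libraries, and the 9 genes were set beside them. The 14 structural genes on the list, among them Mbp, a main protein of central myelin, all had log2 fold changes below 0, with a median of -0.53, and 0 were called by edgeR although 11 had an unadjusted p below 0.05 and DESeq2 called 10. Mbp was at 6264 ± 1242 CPM ad libitum and 4521 ± 581 CPM under fasting (SD, n = 3). Ugt8a was the 1 member with a log2 fold change below that of every structural gene, and 6 of the 9 were below the structural median.

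Each member was therefore expressed as a log2 ratio to the mean log2 CPM of the 14 structural genes in the same library. Ugt8a stood at -1.30, -1.39 and -1.13 ad libitum and at -2.08, -1.83 and -2.09 under fasting, a further difference of -0.73 beyond that of the structural genes. Fa2h stood at -1.94, -1.97 and -1.90 ad libitum and at -2.36, -2.29 and -2.34 under fasting, a difference of -0.39. In both, every fasting library lay below every ad libitum library. The members were chosen on the diet difference, so nothing is read from this separation.

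Enpp2 kept a nearly fixed ratio within each diet. On this log2 scale it was at 0.37, 0.37 and 0.37 ad libitum and at 0.23, 0.24 and 0.20 under fasting. Elovl7 (difference -0.16) and Gltp (-0.07) also had every fasting library below every ad libitum library, while Gal3st1 (-0.07) overlapped. For Cers2 (0.15), Aspa (0.15) and Elovl1 (0.12) every fasting library had the higher ratio. The 9 genes thus covered both sides of the structural genes, with a median difference of -0.07. No share of all tested genes was computed for this ratio, so nothing is read from how many members had separate groups.

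**Figure D2:**
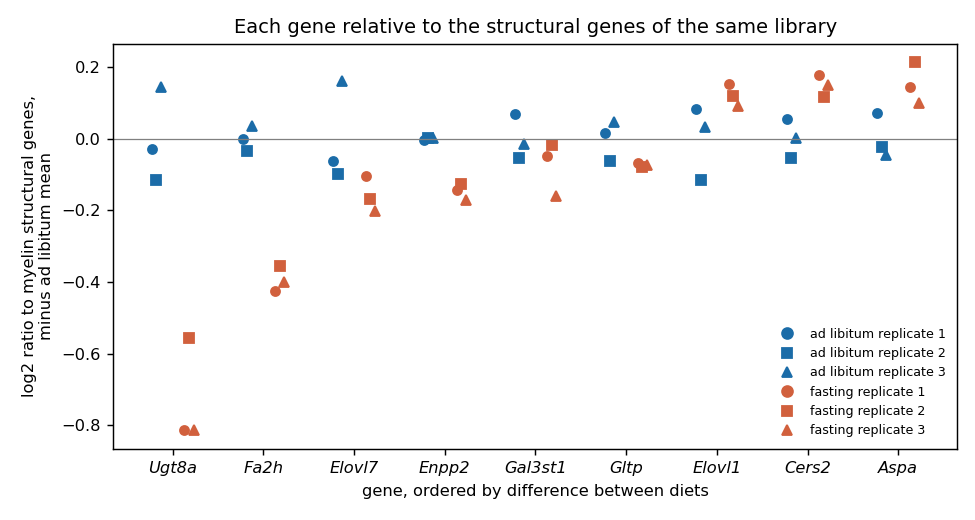
Log2 ratio of each gene to the mean of 14 myelin structural genes in the same library, minus the gene's ad libitum mean, for 3 ad libitum (blue) and 3 fasting (orange) libraries. Ugt8a (difference -0.73) and Fa2h (-0.39) lie at the left, Gal3st1 and Gltp (both -0.07) near 0, and Elovl1 (0.12), Cers2 (0.15) and Aspa (0.15) above 0.

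Within each diet the members moved together from library to library. Ad libitum replicate 2 was the highest ad libitum library for 9 of 9 members, as it was for 35.4% of all tested genes, and fasting replicate 2 was the highest fasting library for 9 of 9, as it was for 36.9% of all tested genes. The structural genes shared this, with 13 of 14 highest in ad libitum replicate 2 and 13 of 14 highest in fasting replicate 2. After the mean of each diet was removed, Pearson's r between pairs of members over the 6 libraries ran from 0.744 (Ugt8a with Cers2) to 0.998 (Aspa with Elovl1), with a median of 0.952 over 36 pairs. Spearman's rho ran from 0.429 to 1.0, with a median of 0.771.

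These correlations rest on both libraries numbered 2: without them the median r over the 36 pairs was 0.13 and the lowest -0.99, over 4 deviations of which those within a diet mirror each other. The median r of all tested genes with the mean of the members was 0.0148. Ugt8a and Elovl7 followed the other 8 members least closely (r = 0.856 and 0.852) and Fa2h most closely (r = 0.990). With the mean of the structural genes, r ran from 0.789 for Ugt8a to 0.997 for Enpp2. No p is attached to these values, since the libraries share tissue preparation and the members were chosen.

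**Figure D3:**
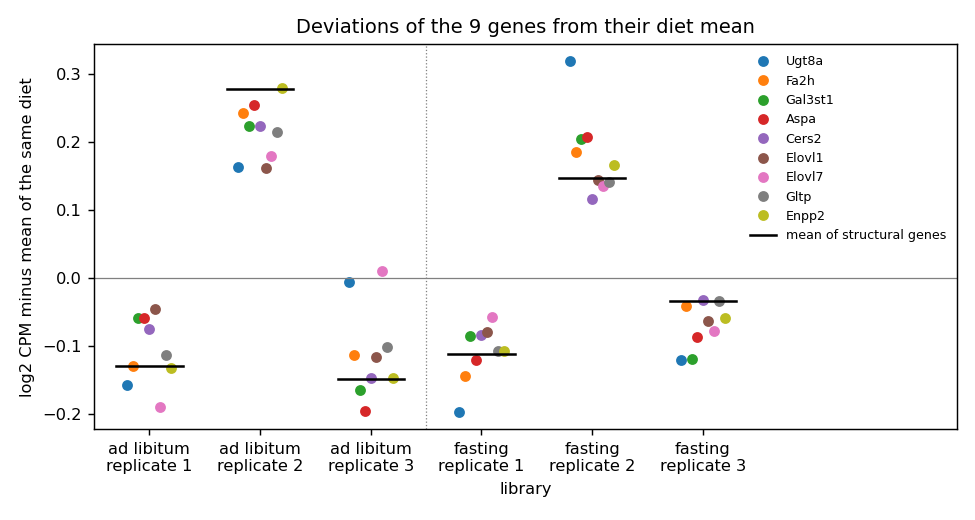
Deviation of log2 CPM from the mean of the same diet for each of the 9 genes (points) and for the mean of the 14 structural genes (black bars) in the 6 libraries. All 9 points lie above 0 in both libraries numbered 2, and Ugt8a at 0.32 in fasting replicate 2 lies farthest from the structural mean of 0.15.

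Over all 6 libraries, diet difference included, 8 genes outside the set followed the mean of the 9 standardised members most closely among 15544 genes with a mean of at least 1 CPM. They were Ermn (r = 0.99965), which encodes a cytoskeletal protein of oligodendrocytes and is 1 of the 14 structural genes above, Gpr37 (0.999), an orphan receptor gene of oligodendrocytes, Frmd8 (0.999), Gm19500 (0.999), Tmem44 (0.998), Slc12a2 (0.998), a sodium, potassium and chloride cotransporter gene, Spg20 (0.998) and Wscd1 (0.998). Ermn was at 219, 289 and 212 CPM with free feeding and at 125, 162 and 132 CPM under fasting, and Gpr37 at 219, 279 and 211 CPM and at 132, 164 and 139 CPM. Both had the profile of the members, with the libraries numbered 2 on top in each diet. The members themselves had r from 0.955 to 0.998 with that mean, which includes them, and 5.97% of the 15544 genes had r of at least 0.9.

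The rest of the lipid pathway, taken from lists of 108 tested genes without the members, had a median log2 fold change of -0.05, with 65 values below 0 and 43 above. All 3 fasting libraries were below the ad libitum libraries for 27 of the 108, where 15.0% of all tested genes were, and above them for 10. In this set 1 gene was called lower by edgeR and 0 higher, where 0.497% of all tested genes were called in either direction. At an unadjusted p below 0.05 there were 30 of the 108 and 3890 of all 19109 genes, and DESeq2 called 11 lower, where it called 4.51% of all genes lower, and 3 higher. The called gene was Elovl5, an elongase of polyunsaturated chains, which fell from 128 ± 9.88 to 86.9 ± 5.67 CPM with an edgeR adjusted p of 0.0439 (log2 fold change -0.56, SE 0.08). That call ended without ad libitum replicate 2 or 3 and without any 1 of the fasting replicates.

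**Figure D4:**
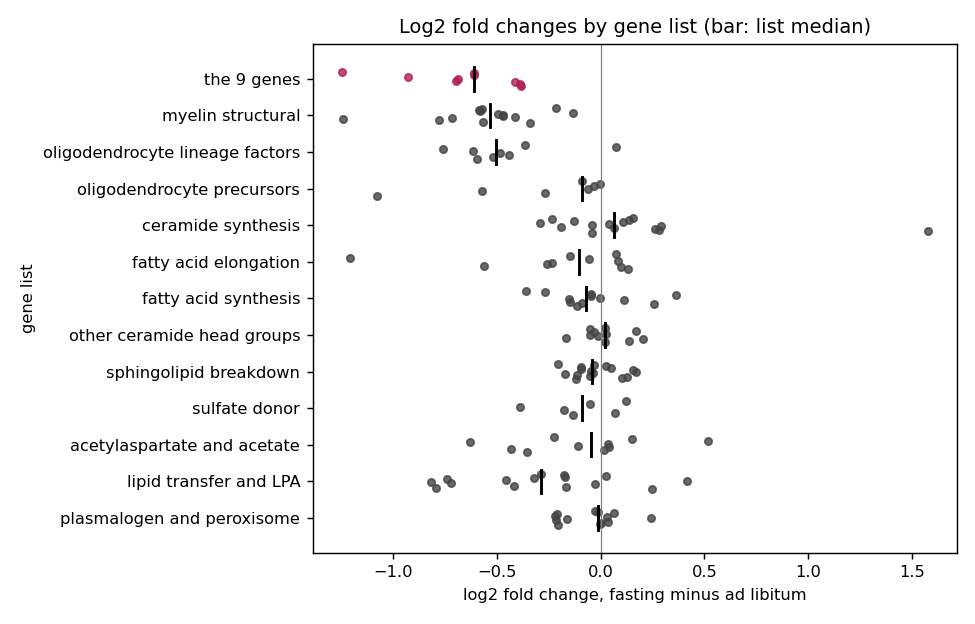
Log2 fold change, fasting minus ad libitum, of each gene (points) in the set of 9, in 3 lists of oligodendrocyte lineage genes and in 9 lists of other lipid pathway genes, with a bar at each list median. The 9 genes (median -0.61) and the structural genes (-0.53) lie left of 0, and the lists of other lipid enzymes have medians between -0.29 and 0.06.

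The list of ceramide synthesis genes, which holds steps before and after Cers2 and the other ceramide synthases, had a median of 0.06 over 15 genes, 0 called by edgeR, 4 with an unadjusted p below 0.05 and 1 called by DESeq2. Cers4, another ceramide synthase, was at 72.6 ± 4.74 and 88.4 ± 4.45 CPM (log2 fold change 0.28, edgeR adjusted p = 0.0926), the opposite direction to Cers2. Cers3 was below 1 CPM in all 6 libraries (log2 fold change 1.58, edgeR adjusted p = 0.124). The 10 genes of fatty acid elongation had their median at -0.10 with Elovl5 called, and among the other elongases Elovl6 was at -0.26, Elovl2 at 0.13 and Elovl4 at 0.10. The 12 genes of fatty acid synthesis had their median at -0.07, with 0 called by edgeR, 3 with an unadjusted p below 0.05 and 3 called by DESeq2. Its most abundant gene, the desaturase gene Scd2, was at 2908 ± 287 and 2268 ± 73.6 CPM (log2 fold change -0.36, edgeR adjusted p = 0.0856, with 6.81% of its transcript sequence also in other genes, most of it in Scd3), and Fads3 was at 0.36 (edgeR adjusted p = 0.104).

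Genes that give ceramide other head groups, or break the glycolipids down, lay close to 0 as well. The head group list had a median of 0.02 over 11 genes and the breakdown list -0.04 over 16, each with 0 called by edgeR and 0 by DESeq2, and with 2 and 1 genes at an unadjusted p below 0.05. B4galt6, which makes lactosylceramide, was at 0.20 and the ceramide kinase gene Cerk at -0.17 (edgeR adjusted p = 0.152 and 0.203). Galc, the lysosomal enzyme that removes the galactose added by Ugt8a, was at 35.5 ± 0.827 and 31.5 ± 0.937 CPM (log2 fold change -0.17, edgeR adjusted p = 0.140). All 3 fasting libraries were below the ad libitum libraries. The glucosylceramidase gene Gba2 was at 0.17 (edgeR adjusted p = 0.413). The 6 genes that supply the sulfate donor of Gal3st1 had their median at -0.09, with 0 called by edgeR, 0 at an unadjusted p below 0.05 and 0 by DESeq2. In it, Papss1, which makes the activated sulfate, was at -0.18 and Bpnt1 at -0.13 (edgeR adjusted p = 0.268 and 0.295).

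Around Aspa, the list of acetylaspartate and acetate genes held 10 genes and had a median of -0.05, with 0 called by edgeR, 5 with an unadjusted p below 0.05 and 3 called by DESeq2. Slc13a3, a carrier of N-acetylaspartate and dicarboxylates, was at 19.8 ± 3.58 and 12.8 ± 0.382 CPM (log2 fold change -0.63, edgeR adjusted p = 0.0715), and Folh1, which splits N-acetylaspartylglutamate, was at -0.43 (edgeR adjusted p = 0.0626). Around Gltp and Enpp2, the list of lipid transfer and lysophosphatidic acid genes had the lowest median of the pathway lists, -0.29 over 15 genes, with 0 called by edgeR, 7 with an unadjusted p below 0.05 and 4 called by DESeq2.

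Enpp1, of the same phosphodiesterase family, was at 17.9 ± 1.0 and 10.3 ± 1.64 CPM (log2 fold change -0.79, edgeR adjusted p = 0.0568). Enpp6, a choline phosphodiesterase of young oligodendrocytes, was at 29.3 ± 4.15 and 17.7 ± 2.69 CPM (-0.72, edgeR adjusted p = 0.0704). Lpar1, the receptor for the product of Enpp2 that oligodendrocytes express, was chosen here after its values were seen and stood at 73.3, 102 and 70.3 CPM with free feeding and at 42.6, 52.1 and 44.1 CPM under fasting (-0.82). The median over 13 plasmalogen and peroxisome genes was -0.01, with 0 called by edgeR, 4 with an unadjusted p below 0.05 and 0 called by DESeq2. The plasmalogen enzyme gene Agps and the peroxisomal oxidation gene Hsd17b4 were each at -0.22 (both edgeR adjusted p = 0.125).

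Lists of cell markers were measured in the same libraries, and their part in the values of the 9 genes was not tested. The summed structural genes ran from 14873 to 20275 CPM ad libitum and from 10662 to 13199 CPM under fasting. Of 8 factors of the oligodendrocyte lineage 7 had log2 fold changes below 0 (median -0.50, 0 called by edgeR, 7 by DESeq2 and 7 with an unadjusted p below 0.05), and their sum ran from 791 to 864 CPM and from 579 to 642 CPM. Their most abundant gene, Olig1, was at -0.49. The summed oligodendrocyte precursor genes overlapped between diets, at 388 to 447 CPM and 376 to 393 CPM, with Tnr the most abundant. Of these 7 genes all 7 were below 0 (median -0.09), 3 did not overlap between diets, and 0 were called by edgeR, with 3 at an unadjusted p below 0.05 and 3 called lower by DESeq2.

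Sums of 8 microglial markers ran from 355 to 489 CPM ad libitum and from 280 to 287 CPM under fasting (8 of 8 below 0, median -0.62, C1qa called by edgeR and all 8 by DESeq2). Sums of 8 astrocyte markers ran from 2884 to 3841 CPM and from 2548 to 2836 CPM (7 of 8 below 0, median -0.31), led by Slc1a2. Of these 0 were called by edgeR, 4 had an unadjusted p below 0.05, and DESeq2 called 3 lower and 0 higher. Neuronal sums overlapped, from 4758 to 6270 CPM and from 5754 to 6151 CPM, led by Snap25 (7 of 8 above 0, median 0.14). In this list 0 were called by edgeR and 0 by DESeq2, with 2 at an unadjusted p below 0.05. Endothelial sums also overlapped, from 269 to 319 CPM and from 265 to 281 CPM, led by Flt1 (7 of 8 below 0, median -0.13). Here 0 were called by edgeR, 4 had an unadjusted p below 0.05, and DESeq2 called 2 lower and 1 higher. Erythroid sums ran from 430 to 1736 CPM and from 254 to 657 CPM, led by Hbb-bs, with 5 of 5 below 0 and a median of -1.13, the lowest of these lists. All 5 erythroid genes overlapped between diets, and 0 were called by edgeR, 0 by DESeq2 and 0 at an unadjusted p below 0.05. Of the genes of Schwann cells, which make peripheral myelin, Prx and Ncmap were at 0.381 to 2.34 CPM in all libraries, and Pmp22, which other cells also express, fell from 56.6 ± 1.09 to 36.7 ± 1.93 CPM (edgeR adjusted p = 0.0292), a call that ended, as all did, without fasting replicate 1 or 3. No marker with a row was at 0 over all libraries.

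Depth was similar throughout, at 42990234 to 48179706 estimated counts per library. Dopaminergic neurons, which define the substantia nigra, were represented in every library, with Th from 86.3 to 236 CPM. Their 8 markers, led by Slc6a3, summed to 810, 756 and 1943 CPM in ad libitum replicates 1, 2 and 3. In fasting replicates 1, 2 and 3 the sums were 792, 1334 and 717 CPM. Of these markers 7 of 8 were below 0 (median -0.31), with 0 called by edgeR, 0 by DESeq2 and 0 at an unadjusted p below 0.05. Ad libitum replicate 3 also had the highest erythroid sum, 1736 CPM. Ad libitum replicate 2 stood apart in some markers, with Tcf7l2, a factor of the lineage list that thalamic and midbrain neurons also express, at 14.2 CPM there, at 216 and 202 CPM in ad libitum replicates 1 and 3, and at 198, 129 and 127 CPM in the fasting replicates. Without that library the 9 genes had a median log2 fold change of -0.50, and 0 were called by edgeR, where 45 genes of the whole table were. At an unadjusted p below 0.05 in that fit there were 8 members and 3550 genes of the whole table.

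In the GENCODE M21 annotation no member overlapped another gene on its own strand, and at most 0.676% of a member's transcript sequence, in words of 31 bases, recurred in other genes. On the opposite strand Cers2 overlapped Setdb1, Elovl1 overlapped Cdc20, and Elovl7 and Enpp2 overlapped predicted genes. The libraries were directional, but no source says whether counting used the strand. Only whole gene spans were compared and not exons, so whether reads of these partners entered the counts of the 4 members is not known. Overlap on the opposite strand was also present for Mbp, Ermn, Frmd8, Gm19500, Galc, Gba2, Cers4, Cerk, Papss1, Slc13a3 and Enpp6. On its own strand Hsd17b4 overlapped Cd63-ps, and Scd2 overlapped Mir5114.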

How the data were processed

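Polyadenylated RNA was sequenced in 6 libraries, which were grouped by title. The authors deposited their estimated counts as 1 table of genes by libraries, in whole numbers and unscaled. The submitters' processing notes list Salmon, DESeq2 1.40.2 and the build GRCm39 (mm39), with no role given. At 42990234 to 48179706 counts a library, spread between libraries and not counting error sets the precision. Within a diet every pair of libraries differed by more than counting noise. Chi-square per degree of freedom was 43.46 to 78.81 between ad libitum libraries and 8.28 to 19.95 between fasting libraries. Rounding altered 0 values, and every column of sample values was used.

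Genes kept by filterByExpr were compared with the quasi-likelihood test of edgeR 4.0.16 (R 4.3.3, robust shrinkage, TMM factors) and Benjamini-Hochberg adjustment over 19109 genes. The SE was taken as the absolute log2 fold change over the root of the F statistic. Ratios and correlations used log2 CPM with a prior count of 2. The fits were tested on simulated counts. Alternatives were DESeq2 1.42.0, limma-voom (limma 3.58.1), RLE factors, other filters, no robust shrinkage, a block for the replicate number, and leaving out each library.

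The members and lists were chosen with earlier results of these data known. Other genes were named by rule: those called in a pathway list or else the 2 of smallest p, the most abundant gene of each marker list, the 8 genes most like the members, and Mbp, Th and Ttr. Some genes that this rule names are not reported here. Lpar1, Tcf7l2, C1qa, Elovl2, Elovl4, Elovl6, Prx and Ncmap were chosen after their values were seen. Protein sequences and the promoters of Fa2h and Enpp2 were not analysed here.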

Additional observations from a re-analysis of the deposited data

How the results depend on the processing

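The direction of all 9 genes held in each of the 13 alternative fits: all 117 log2 fold changes were below 0, from -1.42 to -0.25. Their size varied, for Ugt8a from -1.42 to -1.16 and for Aspa from -0.50 to -0.25. Which genes passed the threshold did not hold. The fit of all libraries called 95 genes, 2 of them members and 1 of the pathway lists. Without robust shrinkage edgeR called 9, 0 and 0, with 3927, 9 and 30 at an unadjusted p below 0.05. DESeq2 called 1395, 8 and 14, and limma-voom 32, 1 and 0. The limma-voom fit put 29 pathway genes and 3876 genes of the whole table at an unadjusted p below 0.05. With RLE factors, with no filter or with a mean count of at least 50, 1 member was called each time. The whole-table counts were 84, 81 and 82 genes, in that order. Leaving out 1 library gave 0 to 1187 genes, 0 to 5 members and 0 to 12 pathway genes, the highest each time without ad libitum replicate 1. Of the members 0 were called without ad libitum replicate 2 or 3 or fasting replicate 1 or 3. Without fasting replicate 2, 1 member was called, among 68 genes of the whole table. Where 0 were called, 8 or 9 members had an unadjusted p below 0.05. So did 3550, 3200, 2452 and 2495 genes of the whole table, in that order of fits. The members were chosen on this difference, so nothing is read from these counts. The cause of the changes in the calls was not tested.

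With the replicate number as a block, 285 genes, 6 members and 4 pathway genes were called. Deviations of same-numbered libraries correlated at 0.21, -0.039 and -0.11, and 2 of 6 libraries correlated best with their own number. So few libraries cannot decide whether the numbers pair them. Relative to Mbp alone the median ratio difference of the members was -0.15 instead of -0.07. Relative to the 14 structural genes it was -0.11 to -0.07 with 1 library left out. The median correlation between members was 0.952 as Pearson's r, 0.771 as Spearman's rho, and 0.926 to 0.971 with 1 library left out.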
